A study of Homo sapiens with 6 samples.

Results

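The cell's oxygen-sensing machinery was examined at the transcript level in MDA-MB-231, a human triple-negative breast cancer cell line, after knockdown of PHF20L1. It was taken as 8 genes chosen by name: the hypoxia-inducible factor (HIF) subunits HIF1A, EPAS1 and ARNT, the prolyl hydroxylases EGLN1, EGLN2 and EGLN3, the asparaginyl hydroxylase HIF1AN, and the ubiquitin ligase subunit VHL. All 8 were among the 17452 genes listed in the deposited files. RNA sequencing covered 3 libraries of cells given a control siRNA (siControl) and 3 of cells given siRNA against PHF20L1 (siPHF20L1), a reader of methylated lysines. All cells grew in L-15 medium with serum and no added CO2. For the oxygen tension, the siRNA sequences and the time between transfection and harvest, the entry was not given in the sources used here. The labels do not state whether replicate libraries derive from independent cultures, and each p-value therefore measures only the spread between these libraries, which may be technical. MDA-MB-231 is a single established line.

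When oxygen is plentiful, the EGLN enzymes (also called PHD1 to PHD3) hydroxylate prolines of the HIF alpha subunits, VHL binds the hydroxylated protein, and the proteasome degrades it. HIF1AN, also known as FIH, hydroxylates an asparagine of the alpha subunits and so blocks the binding of coactivators. When oxygen falls, the alpha subunits escape both marks, pair with ARNT and switch on genes of glycolysis, vessel growth and survival. EGLN1 and EGLN3 are themselves HIF targets, which closes a feedback loop. Much of this control acts on proteins, and transcript levels do not show the amount or the hydroxylation of any of them.

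The knockdown followed the labels. PHF20L1 was at 15.75, 12.48 and 12.73 FPKM (fragments per kilobase of transcript, scaled to the library's depth, the deposited unit) in siControl libraries 1 to 3 and at 2.67, 2.31 and 2.74 FPKM in siPHF20L1 libraries 1 to 3. Depth, estimated from the steps of the lowest values, was 17200000 to 17600000 fragments per library. With transcript lengths of GENCODE release 29 this put roughly 160 to 300 fragments behind a value of EGLN3, the least abundant member, and 10930 to 15270 behind one of HIF1A. All 5 genes expected in a breast epithelial line of mesenchymal type were abundant. Among them were the epithelial keratin gene KRT18 (129 to 156 FPKM) and VIM (1010 to 1644 FPKM). Of 5 luminal markers, the oestrogen receptor gene ESR1 was listed at 0 in all 6 libraries, PGR and CDH1 did not exceed 0.45 FPKM, and GATA3 (1.52 to 2.01 FPKM) and EPCAM (2.02 to 5.13 FPKM) were detected at low levels. The leukocyte marker PTPRC lay between 0.87 and 1.43 FPKM, CD3E and ITGAM did not exceed 0.04 FPKM, and the red cell markers GATA1, HBA1 and HBB were listed at 0. In each group the library numbered 1 stood apart from the other two, and differences are therefore also given within the libraries numbered 1 and within those numbered 2 and 3.

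All 8 members differed between the groups: 4 were lower after the knockdown (HIF1A, ARNT, EGLN1 and EGLN3) and 4 higher (EPAS1, EGLN2, VHL and HIF1AN). A large part of the transcriptome differed between the groups, so this count has to be read against its background. Effects of the siRNA other than the loss of PHF20L1 cannot be told apart from that loss in this design. Of the 11560 genes tested, those with at least 1 FPKM in at least 3 libraries, limma called 58.6% at an adjusted p under 0.05, 34% as higher and 24.7% as lower. The groups did not overlap for any of the 8 members, as was the case for 63.7% of all genes tested. By absolute log2 difference, the members exceeded between 32.2% (VHL) and 83.7% (EGLN2) of the genes tested. EPAS1 exceeded 74.5%, HIF1A 59.9% and ARNT 46.2%. The rises of VHL and HIF1AN were small and did not pass under several other settings: 2 members were higher and 4 lower with quantile normalization or median-ratio size factors, and likewise without any 1 library other than siControl 1. The other 6 members kept their calls in all 16 alternatives, with the exception of ARNT in 1.

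**Figure D1:**
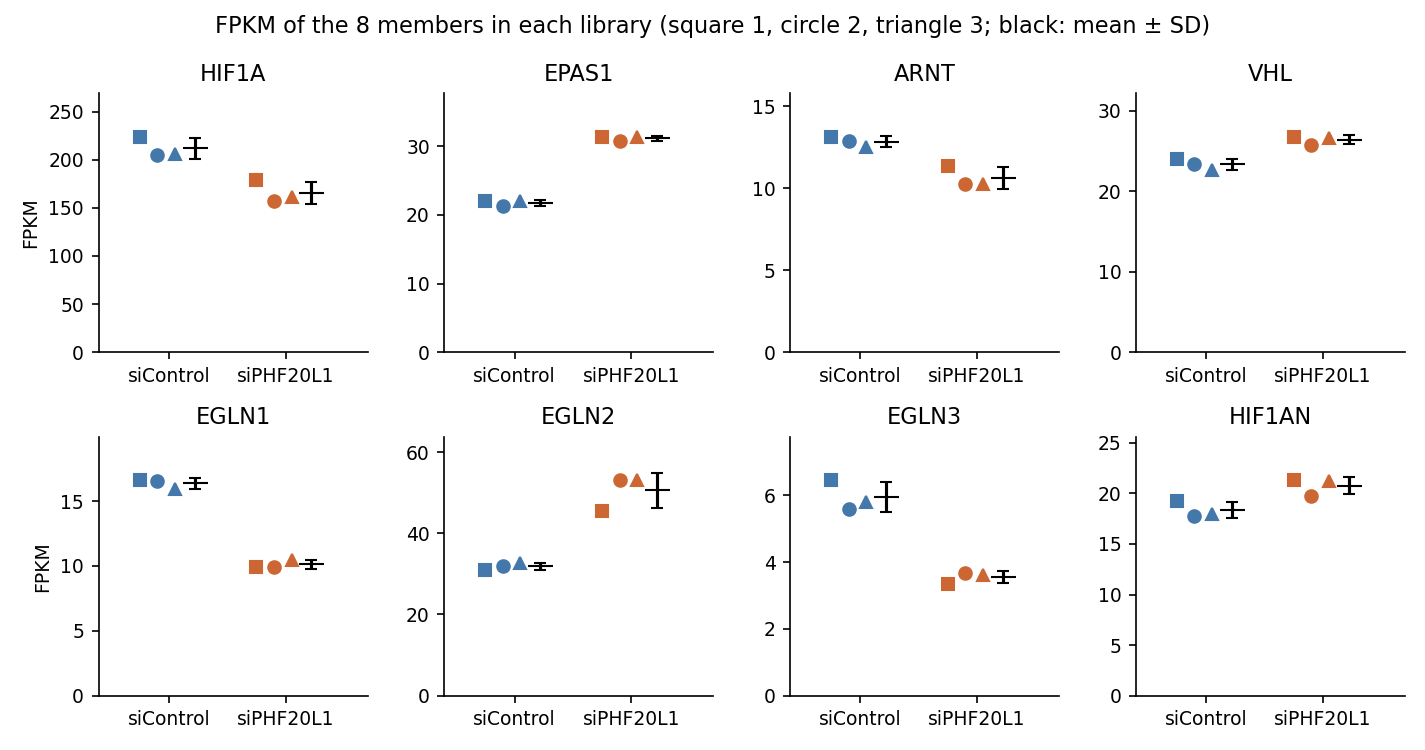
FPKM of each member (vertical axes, each from 0) in the siControl (blue) and siPHF20L1 (orange) libraries; squares, circles and triangles are the libraries numbered 1, 2 and 3, and black bars give the mean ± SD (n = 3). In every panel the groups are apart, with EGLN1 and EGLN3 lower and EGLN2 and EPAS1 higher after the knockdown.

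The promoters of the prolyl hydroxylase genes are shown first, because these paralogs went in opposite directions and EGLN1 and EGLN3 are known HIF targets. Sequences are from the RefSeq table (GRCh38.p14), which held windows for 7 of the 8 members (VHL was the other), and they serve for their letters only, since the submitters' processing notes name another build, GRCh37. Each runs 5′ to 3′ over the 250 bases before an annotated start, and capitals mark the core HIF motif, ACGTG or GCGTG, on either strand.

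EGLN1 (chr1:231422288-231422537, minus strand): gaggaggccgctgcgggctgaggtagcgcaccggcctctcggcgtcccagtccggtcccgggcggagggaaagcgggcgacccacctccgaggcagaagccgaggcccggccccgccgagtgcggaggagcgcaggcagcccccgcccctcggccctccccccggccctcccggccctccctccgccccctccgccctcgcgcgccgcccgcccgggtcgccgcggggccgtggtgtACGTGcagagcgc

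EGLN2, first start (chr19:40798941-40799190, plus strand): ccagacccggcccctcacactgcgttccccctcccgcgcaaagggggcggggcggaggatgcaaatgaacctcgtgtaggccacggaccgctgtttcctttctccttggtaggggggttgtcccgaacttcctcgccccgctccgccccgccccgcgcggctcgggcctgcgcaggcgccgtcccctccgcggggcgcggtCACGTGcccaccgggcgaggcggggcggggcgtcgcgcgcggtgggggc

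EGLN3 (chr14:33951075-33951324, minus strand): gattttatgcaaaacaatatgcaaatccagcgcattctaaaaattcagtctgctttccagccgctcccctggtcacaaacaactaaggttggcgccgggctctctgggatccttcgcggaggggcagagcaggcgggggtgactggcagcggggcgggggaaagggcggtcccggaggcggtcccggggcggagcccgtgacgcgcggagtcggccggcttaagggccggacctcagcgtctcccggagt

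The EGLN1 window held ACGTG once, 9 to 13 bases before the start. In the first EGLN2 window it stood on both strands, overlapping as CACGTG 44 to 49 bases before the start, a word that is also the E-box bound by other basic helix-loop-helix proteins. Neither the EGLN3 window nor that of the second EGLN2 start held either motif. Among the other members, HIF1A (first start) and EPAS1 each held 1 GCGTG, 200 to 204 and 113 to 117 bases before the start, and ARNT and HIF1AN held none. ACGTG occurred in 18.5% of all 35116 windows, GCGTG in 32.2% and either in 43.2%. Within these windows the motif stood before a gene that fell and before a gene that rose. Sequence further upstream and within the genes was not searched, so a window without the motif does not show that a gene lacks a HIF site. This holds for EGLN3 as well. With either motif in 43.2% of all windows, a role in direction cannot be read from these matches and was not tested. No binding was measured here. CpG dinucleotides numbered 36 in the EGLN1 window, 35 and 38 in those of EGLN2, 38 in that of EPAS1, 29 and 3 in those of HIF1A, 23 in that of EGLN3, 18 in that of ARNT and 13 in that of HIF1AN, against a median of 11 over all windows; DNA methylation was not analysed here.

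HIF1A, the broadly expressed alpha subunit, was by far the most abundant member and fell. Its level was 223.92, 205.22 and 205.92 FPKM in siControl libraries and 178.51, 157.03 and 161.37 FPKM in siPHF20L1 libraries. Library 1 was the highest in both groups, and the highest siPHF20L1 value lay below the lowest siControl value. The mean went from 212 ± 10.6 to 166 ± 11.4 FPKM (SD, n = 3), 1.28-fold lower, with a log2 difference of -0.35 on the log2(FPKM + 1) scale (95% interval -0.51 to -0.20, limma, adjusted p = 0.00208). It was -0.33 within the libraries numbered 1 and -0.37 within those numbered 2 and 3. In a bulk sample, fewer cells that express a gene and less of its RNA per cell cannot be told apart, here and for every gene below.

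EPAS1, which encodes HIF-2 alpha, moved the other way. It stood at 22.00, 21.29 and 21.95 FPKM in siControl and at 31.36, 30.69 and 31.40 FPKM in siPHF20L1 libraries. The libraries of a group were nearly level and the groups far apart, a 1.43-fold rise with a log2 difference of 0.50 (95% interval 0.38 to 0.62, limma, adjusted p = 6.90e-05). It was 0.49 within the libraries numbered 1 and 0.50 within the others. EPAS1 is known for its abundance in endothelium, and of the endothelial markers CDH5 did not exceed 0.03 FPKM, TEK 0.04 FPKM and PECAM1 0.5 FPKM in any library, while KDR lay between 1.19 and 1.47 FPKM.

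ARNT, also called HIF-1 beta, is the shared partner of both alpha subunits. Its 13.15, 12.86 and 12.51 FPKM in siControl stood against 11.38, 10.24 and 10.25 FPKM in siPHF20L1 libraries. The siPHF20L1 library numbered 1 came closest to the siControl group without reaching it. The fall was 1.21-fold, with a log2 difference of -0.25 (95% interval -0.41 to -0.10, limma, adjusted p = 0.0105), -0.19 within the libraries numbered 1 and -0.28 within the others. With the libraries numbered 2 and 3 of each group averaged into one, its adjusted p in limma was 0.106.

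Because FPKM is scaled to transcript length, levels of different subunits can be set side by side. The lengths used for the deposited values were not given, and ratios, shares and orders of levels between genes rest on them. HIF1A FPKM exceeded EPAS1 FPKM 10.2-, 9.64- and 9.38-fold in siControl libraries and 5.69-, 5.12- and 5.14-fold in siPHF20L1 libraries. The log2 of this ratio went from 3.28 ± 0.06 to 2.41 ± 0.087 (SD, n = 3), a difference of -0.873, with no overlap (exact permutation test, two-sided, p = 0.1, the smallest that 3 against 3 libraries allow). Since HIF1A was lower and EPAS1 higher in every siPHF20L1 library, this outcome was fixed by the single genes. It adds no evidence of its own. HIF1A made up 90.7% ± 0.35 of the summed HIF1A and EPAS1 FPKM in siControl and 84.1% ± 0.80 in siPHF20L1 libraries. The sum of both alpha subunits over ARNT was 18.7, 17.6 and 18.2 in siControl and 18.4, 18.3 and 18.8 in siPHF20L1 libraries. These values overlapped, and the difference of 0.35 was smaller than the SD of the siControl libraries, 0.54 (exact permutation test, two-sided, p = 0.4). This ratio and the other ratios of summed levels below were added after the values had been seen.

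EGLN1, which encodes PHD2, the hydroxylase known as the main oxygen sensor of most cells, fell. It was at 16.61, 16.55 and 15.90 FPKM in siControl and at 9.91, 9.95 and 10.49 FPKM in siPHF20L1 libraries. The spread within a group was small beside the gap between the groups. The fall was 1.62-fold, with a log2 difference of -0.64 (95% interval -0.78 to -0.51, limma, adjusted p = 3.67e-05). It was -0.69 within the libraries numbered 1 and -0.62 within those numbered 2 and 3.

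EGLN3, which encodes PHD3, the most strongly hypoxia-induced hydroxylase in many cells, fell by a similar factor at a lower level. Its siControl values were 6.46, 5.60 and 5.80 FPKM and its siPHF20L1 values 3.36, 3.68 and 3.63 FPKM. Library 1 was the highest of the siControl group and the lowest of the siPHF20L1 group. The fall was 1.67-fold, with a log2 difference of -0.61 (95% interval -0.78 to -0.43, limma, adjusted p = 2.09e-04). It was larger within the libraries numbered 1 (-0.77) than within those numbered 2 and 3 (-0.53).

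EGLN2, which encodes PHD1, rose. It was at 30.97, 31.93 and 32.77 FPKM in siControl and at 45.55, 53.09 and 53.09 FPKM in siPHF20L1 libraries. The lowest siPHF20L1 value, that of library 1, lay well above all siControl values. The rise was 1.59-fold, with a log2 difference of 0.65 (95% interval 0.48 to 0.81, limma, adjusted p = 9.53e-05), 0.54 within the libraries numbered 1 and 0.70 within the others. RefSeq also lists a readthrough transcript, RAB4B-EGLN2, whose fragments could be counted with EGLN2.

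**Figure D2:**
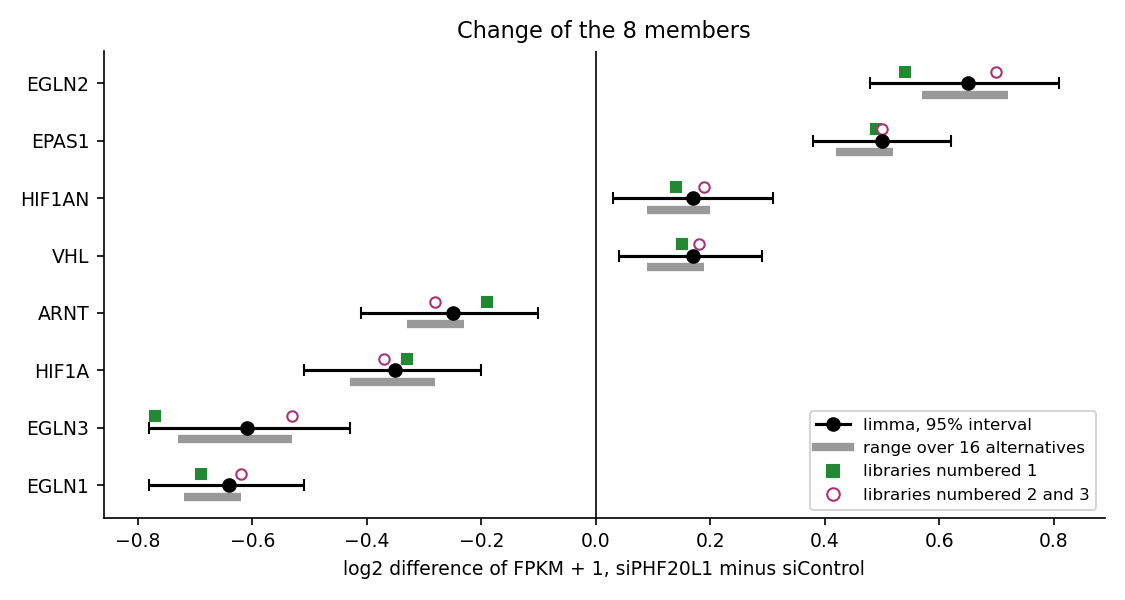
Log2 difference of FPKM + 1, siPHF20L1 minus siControl (horizontal axis), for each member; black points with bars are limma estimates with 95% intervals, grey bars the range over 16 alternative settings, squares the libraries numbered 1 and open circles those numbered 2 and 3. EGLN1 (-0.64) and EGLN2 (0.65) lie at opposite ends, and no grey bar crosses 0.

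The opposite moves changed the makeup of the prolyl hydroxylase transcripts. EGLN2 supplied 57.3%, 59.0% and 60.2% of the summed EGLN FPKM in siControl and 77.4%, 79.6% and 79.0% in siPHF20L1 libraries. EGLN1 went from 30.2% ± 0.86 to 15.8% ± 0.98 (SD, n = 3) and EGLN3 from 11.0% ± 0.85 to 5.54% ± 0.16. None of the 3 shares overlapped between the groups (exact permutation test, two-sided, p = 0.1 for each, the smallest possible). With EGLN1 and EGLN3 lower and EGLN2 and the sum higher in every siPHF20L1 library, this separation was already fixed by those levels. The sum itself was 54.0, 54.1 and 54.5 FPKM in siControl and 58.8, 66.7 and 67.2 FPKM in siPHF20L1 libraries, so that it did not fall with EGLN1 and EGLN3. The FPKM of both alpha subunits over that sum went from 4.31 ± 0.21 to 3.08 ± 0.42, and over VHL from 10.0 ± 0.30 to 7.46 ± 0.33, in neither case with overlap (exact permutation test, two-sided, p = 0.1 for each). These ratios likewise restate the levels of their parts. The enzymes differ in activity and in which alpha subunit they prefer, so a share of transcripts is not a share of activity.

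**Figure D3:**
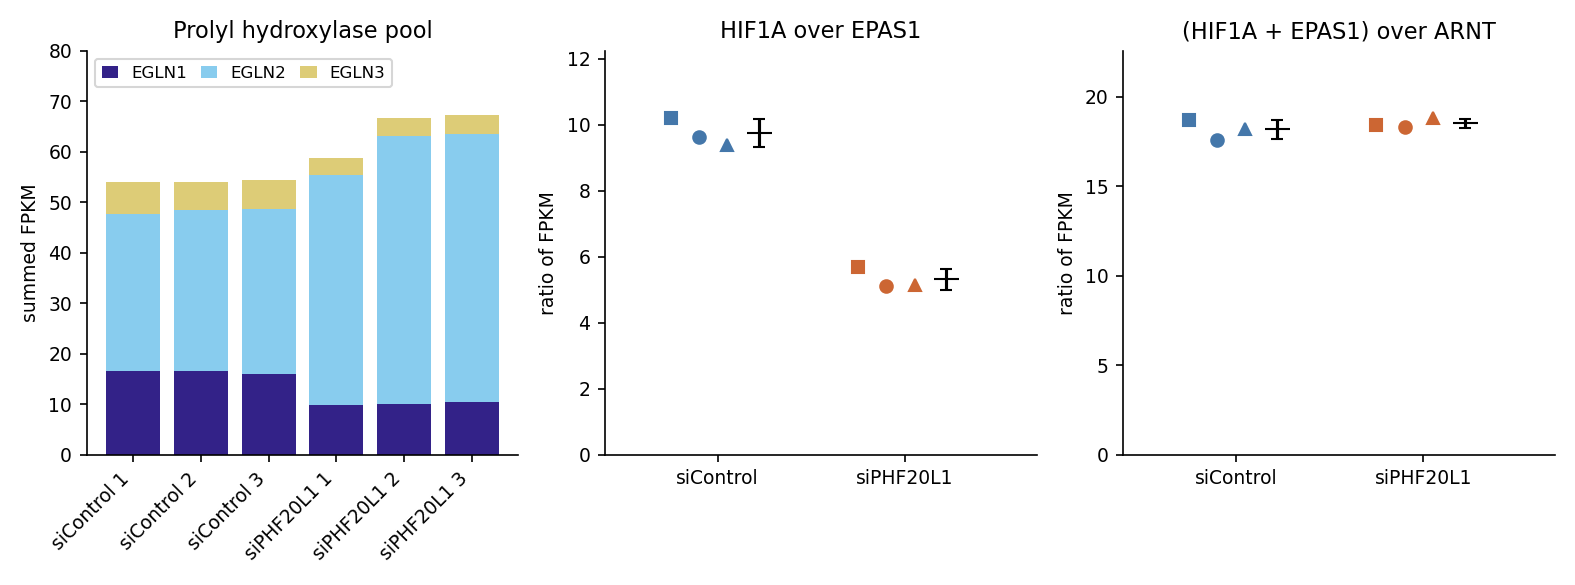
Left, FPKM of EGLN1, EGLN2 and EGLN3 stacked for each library; middle and right, ratios of FPKM per library (squares, circles and triangles: libraries 1, 2 and 3; black bars: mean ± SD, n = 3). EGLN2 fills 57.3% to 60.2% of the siControl stacks and 77.4% to 79.6% of the siPHF20L1 stacks, HIF1A over EPAS1 drops from 9.73 to 5.32 on average, and both alpha subunits over ARNT stay between 17.6 and 18.8.

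VHL, the subunit that recognises hydroxylated alpha subunits, lay at 23.95, 23.41 and 22.64 FPKM in siControl and at 26.76, 25.70 and 26.60 FPKM in siPHF20L1 libraries. The groups were close but did not overlap, and the 1.13-fold rise had a log2 difference of 0.17 (95% interval 0.04 to 0.29, limma, adjusted p = 0.0261). It passed in 8 of the 16 alternatives, among them the replicate block (limma, adjusted p = 0.00195). It did not with quantile normalization (log2 difference 0.11, limma, adjusted p = 0.124), with median-ratio size factors (0.09, 0.157), with the libraries numbered 2 and 3 of each group averaged (0.17, 0.184), or without any 1 of 5 libraries, siControl 1 being the exception (adjusted p from 0.0506 to 0.0994). The related retrogene VHLL did not exceed 0.1 FPKM in any library.

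HIF1AN, the asparaginyl hydroxylase, was at 19.29, 17.80 and 17.97 FPKM in siControl and at 21.31, 19.77 and 21.21 FPKM in siPHF20L1 libraries. The values were close to touching, and the 1.13-fold rise had a log2 difference of 0.17 (95% interval 0.03 to 0.31, limma, adjusted p = 0.0430). It passed in 6 of the 16 alternatives, among them the replicate block (limma, adjusted p = 0.00268). It did not pass with quantile normalization (log2 difference 0.11, limma, adjusted p = 0.139), median-ratio size factors (0.09, 0.193), equal sums (0.19, 0.0626), no trend (0.17, 0.0514), averaged libraries (0.16, 0.216), or without any 1 library other than siControl 1 (0.15 to 0.20, adjusted p from 0.0505 to 0.140).

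The order of the members' levels changed in part. In siControl libraries it ran, by mean FPKM, from HIF1A (212) through EGLN2 (31.9), VHL (23.3), EPAS1 (21.7), HIF1AN (18.4), EGLN1 (16.4) and ARNT (12.8) to EGLN3 (5.95), and no neighbours overlapped. In siPHF20L1 libraries EPAS1 (31.2) stood above VHL (26.4), with no overlap, and ARNT (10.6) and EGLN1 (10.1) overlapped. HIF1A, EGLN2, HIF1AN and EGLN3 kept their ranks.

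Genes with a pattern like that of a member were sought among all genes tested, by the Euclidean distance between log2(FPKM + 1) values centred on each gene's mean over the 6 libraries. The nearest was RPS6KB1, an S6 kinase gene, for HIF1A (distance 0.036), SPRYD4 for EPAS1 (0.047) and RCAN1, a calcineurin regulator, for ARNT (0.032). For EGLN1 it was the mitochondrial carrier gene SLC25A23 (0.069), for EGLN2 the histone methyltransferase gene EHMT1 (0.047) and for EGLN3 the chloride transporter gene CLCN4 (0.081). XPO5, which exports microRNA precursors, was nearest to VHL (0.043) and RAB11FIP1 to HIF1AN (0.044). With 6 libraries in 2 groups, genes with a group difference of about the same size lie close together in this measure. No member was among the 3 genes nearest to another.

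In the longest annotated 3′ UTRs (GENCODE release 29), the words CAAGAT and TAAGGA were counted, since they had been picked on these same libraries as frequent in lower genes. One or both occurred in 54.2% of the genes tested with a 3′ UTR, in 62.2% of the lower and in 50.6% of the higher ones, uncorrected for UTR length. Among the members they stood in ARNT (1 of each) and EGLN1 (1 TAAGGA), which fell, and in EPAS1 and VHL (1 of each) and HIF1AN (6 and 2 in a UTR of 11861 nt), which rose. HIF1A and EGLN3, which fell, held neither, nor did EGLN2. Members of both directions carried the words. Since these were picked on the same libraries, a role in direction cannot be read from them and was not tested.

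The neighbours of the 8 genes in the pathway went both ways in most lists. Of the 14 genes of the VHL ubiquitin ligase and its regulators, 2 were higher and 6 lower (57.1% called, median log2 difference -0.19, against 58.6% and 0.05 over all genes tested). The ring protein gene RBX1 fell 1.22-fold (35.9 ± 0.71 to 29.5 ± 1.23 FPKM, limma, adjusted p = 0.00267), the scaffold gene CUL2 1.18-fold (adjusted p = 0.0462, groups overlapping) and the elongin C gene TCEB1 1.15-fold (adjusted p = 0.0355). TCEB2, for elongin B, was at 164 ± 28.5 and 142 ± 18.5 FPKM and did not pass (adjusted p = 0.245, with the replicate block 0.0148, and without siControl 1 0.0203). UBE2S, a ubiquitin-conjugating enzyme reported to act on VHL itself, fell 1.59-fold (391 ± 78.0 to 246 ± 48.9 FPKM) and the VHL-binding prefoldin subunit gene VBP1 1.21-fold, while the conjugating enzyme gene UBE2D1 rose 1.5-fold and WSB1, a ligase gene reported to act on VHL, 1.17-fold. Only 2 were lower without siControl 2, without siPHF20L1 2 or without siPHF20L1 3, and 1 was higher without siControl 3. In limma, TCEB1 lost its call without any 1 library other than siPHF20L1 1 (adjusted p up to 0.125), CUL2 and VBP1 each without siControl 1, siControl 2, siPHF20L1 2 or siPHF20L1 3 (up to 0.155 and 0.129), and WSB1 without siControl 3 (0.0601).

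Among 12 cofactors and regulators of the hydroxylases, 3 were higher and 1 lower (33.3% called, median 0.06). SIAH2, a ubiquitin ligase that targets EGLN2 and EGLN3 for degradation, rose from 8.0 ± 0.58 to 15.9 ± 1.13 FPKM, 1.99-fold (limma, adjusted p = 2.41e-05). Its paralog SIAH1 did not pass (log2 difference 0.09, limma, adjusted p = 0.362). The chaperone gene HSP90AB1 rose 1.17-fold and ING4, for a tumour suppressor that binds EGLN1, 1.23-fold, the latter with an adjusted p up to 0.108 without siControl 1, siControl 3, siPHF20L1 1 or siPHF20L1 2. PTGES3, for the HSP90 cochaperone p23 that recruits EGLN1, fell 1.32-fold (130 ± 4.51 to 98.7 ± 0.552 FPKM, adjusted p = 2.51e-04). A block for the replicate number gave counts of 5 and 3, and without siControl 1 there were 2 lower.

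Of 12 coactivators and transcriptional cofactors of HIF, 3 were higher and 4 lower (58.3% called, median -0.16), and 7 were lower when the replicate number entered as a block. CDK8, the mediator kinase gene, rose 2.15-fold (6.12 ± 0.422 to 13.2 ± 0.776 FPKM, limma, adjusted p = 1.22e-05), NCOA2 1.43-fold and the acetyltransferase gene CREBBP 1.22-fold (without siControl 2 or siControl 3, adjusted p = 0.0659 and 0.0669). Its paralog EP300 did not pass (log2 difference -0.14, adjusted p = 0.195, with the replicate block 0.0152). ZMIZ1 fell 1.7-fold, NCOA1 1.63-fold and PKM, for pyruvate kinase, 1.44-fold. CITED2, which competes with HIF1A for these acetyltransferases, was the remaining lower gene (log2 difference -0.42, adjusted p = 5.45e-04).

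Factors that act on HIF alpha stability without VHL had 5 of 17 higher and 3 lower (47.1% called, median -0.02), and 6 lower with the block. FBXW7, a ubiquitin ligase that marks phosphorylated HIF1A, rose 1.86-fold (4.15 ± 0.515 to 7.72 ± 1.1 FPKM, limma, adjusted p = 4.82e-04), SART1 1.66-fold and the SUMO-pathway gene RWDD3 1.44-fold. MDM2 fell 1.7-fold and BHLHE41, whose product promotes HIF alpha degradation, 1.43-fold. RACK1, which competes with HSP90 for HIF1A, was 1.21-fold lower with overlapping groups (adjusted p = 0.0473) and passed in 9 of the 16 alternatives. Its log2 difference was 0 with quantile normalization (adjusted p = 0.981), and its call was lost without siControl 2, siControl 3, siPHF20L1 1 or siPHF20L1 3 (up to 0.162).

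Of 8 basic helix-loop-helix PAS relatives that could be tested, ARNTL2 rose 1.47-fold and CLOCK fell 1.67-fold (7.45 ± 1.17 to 4.45 ± 0.588 FPKM). NPAS1 rose 2.83-fold (1.07 ± 0.189 to 3.03 ± 0.675 FPKM, limma, adjusted p = 3.26e-04). At 0.86 FPKM in siControl 1, NPAS1 reached the minimum for testing only with the help of the siPHF20L1 libraries. Its call therefore carries no weight of its own. With the block, and likewise without siPHF20L1 3, 2 were lower. The aryl hydrocarbon receptor gene AHR, another partner of ARNT, did not pass (log2 difference -0.07, adjusted p = 0.605).

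Other oxygen-dependent dioxygenases, listed with the arginine branch of the N-degron pathway, had 3 of 19 higher and 6 lower (47.4% called, median 0.04). The histone demethylase gene KDM6B rose 1.73-fold (3.10 ± 0.121 to 5.35 ± 0.462 FPKM, limma, adjusted p = 1.94e-04), KDM4A 1.18-fold and the collagen prolyl hydroxylase gene P4HA2 1.14-fold, while KDM5B fell 1.51-fold, the arginyl-transferase gene ATE1 1.47-fold and JMJD6 1.29-fold. ADO, the cysteine dioxygenase that senses oxygen by a route separate from HIF, and KDM6A were also lower (log2 differences -0.32 and -0.32, adjusted p = 0.00145 and 0.00573). KDM4A lost its call without siControl 2 or siPHF20L1 3 (up to 0.0681) and P4HA2 without any 1 library other than siPHF20L1 1 (up to 0.12). Adding the block left 6 higher, and just 1 was higher without siControl 2 or without siPHF20L1 3.

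The hydroxylases use 2-oxoglutarate and are inhibited by succinate and fumarate. Of 18 genes for enzymes that make or use these acids, 2 were higher and 8 lower (55.6% called, median -0.10). IDH1, the cytosolic isocitrate dehydrogenase that makes 2-oxoglutarate, fell 3.54-fold, the succinate dehydrogenase subunit gene SDHD 1.77-fold and SUCLG2 1.45-fold, whereas SDHC rose 1.25-fold and OGDH 1.17-fold, and the fumarase gene FH was lower (log2 difference -0.25, limma, adjusted p = 0.00445). Only 1 was higher without siControl 1, without siPHF20L1 2 or without siPHF20L1 3, where OGDH did not pass (adjusted p up to 0.0912).

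**Figure D4:**
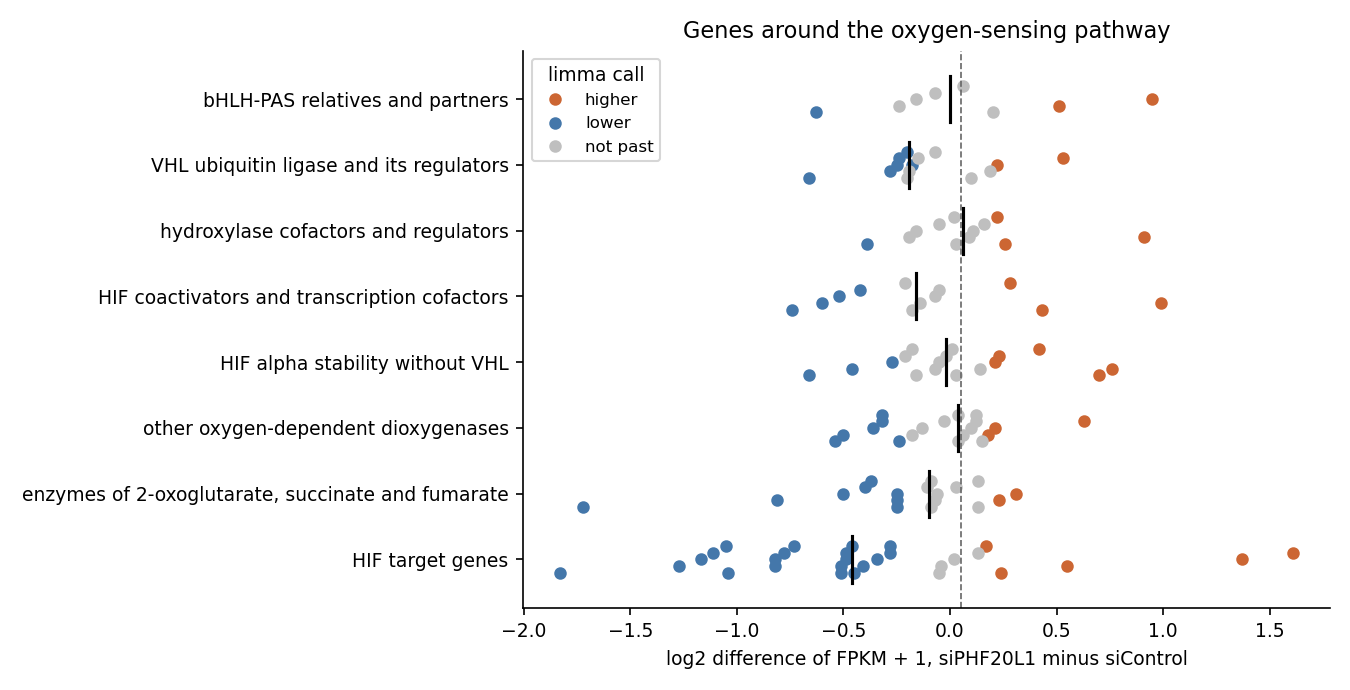
Log2 difference of FPKM + 1 (horizontal axis, siPHF20L1 minus siControl) of each tested gene in 8 lists around the pathway, coloured by the limma call; black bars are list medians and the dashed line is the median of all genes tested, 0.05. The HIF target genes have a median of -0.46, and the other lists lie between -0.19 and 0.06.

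Among 29 textbook HIF target genes, 20 were lower and 5 higher (86.2% called, median log2 difference -0.46, against 58.6% and 0.05 over all genes tested). BNIP3 fell 3.61-fold, and the growth factor gene TGFA, the oxidoreductase gene ERO1A and CA12 rose 3.35-, 2.73- and 1.52-fold (limma, adjusted p at most 8.69e-05 for each). CA9 went from 2.94 to 0.75 FPKM, 3.92-fold lower. It reached the minimum for testing through the siControl libraries alone, so its call carries no weight of its own. With at least 1 FPKM required in all 6 libraries, 19 targets were lower and 5 higher. EGLN1 and EGLN3 were not in that list. KDM3A and P4HA1, also outside it and also induced by HIF, differed by a log2 of 0.04 each and did not pass (adjusted p = 0.606 and 0.676). Earlier results of these data had already shown hypoxia-response genes to be lower, so the list is no independent evidence of that direction.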

How the data were processed

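Transcripts were measured by poly-A RNA sequencing in 3 siControl and 3 siPHF20L1 libraries. Per the file headers, the authors deposited FPKM, 1 value per gene and library. TopHat2 2.1.1, HTSeq 0.6.0, Bowtie 0.12.2 and the build GRCh37 appear, with no role, in the submitters' processing notes; for the annotation, the FPKM calculation and the use of strand the entry was not given in the sources used here, so fragments of genes on the opposite strand, such as the HIF1A antisense RNAs, cannot be told apart. limma 3.58.1 (R 4.3.3) with an intensity trend was fitted to log2(FPKM + 1), which understates changes of low genes, over genes with at least 1 FPKM in at least 3 libraries. P-values are two-sided and Benjamini-Hochberg adjusted over all 11560 genes tested, with a threshold of 0.05. The fit was tested on simulated data. Named genes are the 8 members, PHF20L1, up to 3 rises and 3 falls per list among genes past the threshold, the VHL complex, and the nearest genes by pattern; 1 gene this rule names is not reported here, and other genes named were chosen after their values were seen. The members and lists were chosen with earlier results of these data known. Promoter windows come from RefSeq and 3′ UTRs from GENCODE release 29.

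Same-numbered libraries deviated together from their group means (correlations of 0.73, 0.44 and 0.42 for the numbers 1, 2 and 3), which meets the criterion of 0.1 for pairing, although siControl 3 with siPHF20L1 2 gave 0.49. The main fit and the permutation tests were nevertheless unpaired, and the replicate block entered only as an alternative. Within a group the libraries numbered 2 and 3 were the closest, with a mean chi-square per gene of 2.33 and 2.05 on estimated fragments, against 12.6 to 16.25 for pairs with number 1, and were kept as separate samples. The 16 alternatives covered pseudocount, filter, scaling, block, trend, averaging and libraries left out.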

Additional observations from a re-analysis of the deposited data

How the results depend on the processing

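The 4 lower members stayed lower in all 16 alternatives, with ARNT not past the threshold when the libraries numbered 2 and 3 were averaged, which leaves 2 samples per group. Of the 4 higher members, 2 remained past it under median-ratio size factors, quantile normalization and that averaging, and 2 to 4 without 1 library. These were EPAS1 and EGLN2, and the cause was not tested. With the replicate block 4 members were higher and 4 lower, and no member's call changed. Over all genes the count of higher genes lay between 2949 and 4946 and that of lower ones between 1941 and 3846.

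Small list counts moved by more than 1.5 times. Across the alternatives these were 1 to 3 lower and 1 to 3 higher PAS relatives; 2 to 9 lower and 1 to 3 higher VHL ligase genes (3 lower with equal sums); 1 to 5 higher and 1 to 3 lower hydroxylase cofactors; up to 7 lower coactivators; 3 to 6 higher and 2 to 6 lower stability factors; 1 to 6 higher dioxygenases; 0 to 4 higher and 4 to 8 lower enzymes of 2-oxoglutarate and its products; and 3 to 6 higher HIF targets. The cause was not tested. No direction of a member reversed. EGLN3 had the fewest fragments of the members.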

Other observations

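Relatives of the members were listed at low levels. HIF3A, the third alpha subunit gene, was at 0.91, 0.50 and 0.50 FPKM in siControl and at 0.71, 0.65 and 0.53 FPKM in siPHF20L1 libraries. ARNT2, the paralog of ARNT, was at 0.97, 1.09 and 0.95 FPKM and at 0.77, 0.82 and 0.98 FPKM. Both lay under the minimum for testing, and the groups overlapped for each.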
